A study of Nothobranchius furzeri with 9 samples.

Results

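Whole skeletal muscle of adult turquoise killifish (20 weeks) was compared with that of young fish (5 weeks) by RNA sequencing, at the level of single genes and of gene families that belong to growth and to the maturation of the muscle fibre. All entries of the deposited table with a mean normalised read count of at least 5 over the 9 libraries of the series were taken, which gave 17454 of 39396 entries. Of the entries left out, 7648 held no read in any library. Near the limit, 950 entries had a mean from 4 to under 5 and 725 had a mean from 5 to under 6.

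The young and the adult group held 3 libraries each, and each library came from 1 male fish of the strain MZM-04/10, killed in a fasted state at a fixed morning hour. No transgene, deletion or drug was used in either group, so that age is the only label that separates them. A further 3 libraries of old fish (35 weeks) entered the fit to estimate the spread between fish. Muscle was taken whole, so every cell type of the tissue could contribute RNA.

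The killifish is an annual fish that hatches, grows and matures within a few weeks of its life in temporary ponds. In a growing fish, muscle gains mass by making new fibres from precursor cells and by enlarging those present, and both demand cell division, ribosomes and matrix. When growth slows, fibres exchange developmental forms of contractile proteins for mature ones. Insulin and IGF signalling drive growth in this tissue, whereas the FOXO factors and glucocorticoids drive its breakdown during fasting.

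The tissue label was checked first against marker lists. Markers of skeletal muscle fibres, such as titin (TTN), creatine kinase (CKMB) and the fast light chain MYL1, summed to between 3528405 and 3815173 normalised reads in young libraries and to 5057254, 2902236 and 4456986 in the adult ones. The adult replicate 2 was therefore the lowest of all 6 in abundant muscle genes, and its share of TTN was 22.6% against 29.6% and 26.7% in the other adult libraries. Normalised totals were 10.2 to 11.4 M reads per young and 9.4 to 13.1 M per adult library. Of the 25 muscle entries tested, 1 was called between the ages.

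Marker sums of several other cell types differed between the ages. Neuron markers summed to 939, 3060 and 2148 in young and to 40, 82 and 85 in adult libraries, and 10 of 12 tested entries were lower in adult. Leukocyte markers summed to 327 to 471 in young and 783 to 1315 in adult muscle, with 7 of 13 entries higher. Fibroblast and tendon markers summed to 92531 to 117190 in young and 33250 to 69194 in adult muscle. Most of this sum was COL1A1A, COL1A1B and COL1A2, and 2 of 14 entries were lower (14.3%, beside 11.4% of all genes), with a median of -0.26. Cartilage and bone cell markers summed to 4815 to 6661 in young and 1861 to 3081 in adult muscle, with 8 of 26 entries lower. Endothelial markers summed to 860 to 1072 in young and 1290 to 1627 in adult muscle, with 3 of 18 entries called higher (16.7%, beside 10.7% of all genes). Adipocyte markers summed to 1603 to 1857 and 2728 to 3813, with 3 of 6 called higher, namely both entries of LPL and PPARG. In whole muscle, fewer cells of a type and less RNA per cell cannot be told apart.

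Slow fibre markers had 4 of 18 entries higher by limma (22.2%, beside 10.7% of all genes) and 0 lower. At an unadjusted limma p under 0.05 the counts were 5 and 0. These markers had a median difference of 0.87. Their sum overlapped between the ages (95499 to 116471 in young and 74650 to 123732 in adult muscle), since most of it was 1 entry of MYH7 (815926) that was not called. Pigment cell markers summed to 256 to 305 in young and 651 to 1505 in adult muscle through MITFB (939122), which had 117, 68 and 126 and then 502, 1334 and 655 reads, while TYRP1A (63341) was lower and the other 8 entries were not called. Epidermal markers summed to 5449 to 10145 in young and 5578 to 6802 in adult muscle, and those of red blood cells to 2736 to 4325 and 1542 to 2802. The sums of liver and digestive tract markers (239 to 739 in young, 233 to 907 in adult) and of germ cell markers (434 to 769 and 428 to 590) overlapped. Young replicate 1 stood apart in germ cell genes: DDX4 had 48, 0 and 0 reads in the young libraries, SYCP1 66, 0 and 0 and PIWIL1 61, 2 and 5, against at most 5 in any adult library. The heart muscle list fell from between 81943 and 116356 to between 15242 and 22395 through its member MYH6, a myosin heavy chain discussed with the sarcomere genes, while the heart transcription factor NKX2.5 (872168) had only 4, 10 and 15 reads in young and 3, 3 and 1 in adult muscle, a fall that was called with all libraries and lost in most alternatives. Myelinating glia markers rose from between 9521 and 11936 to between 16974 and 21972 mostly through PRX, whereas the myelin gene MBPB (2275 and 2033 as group means) was not called.

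**Figure D1:**
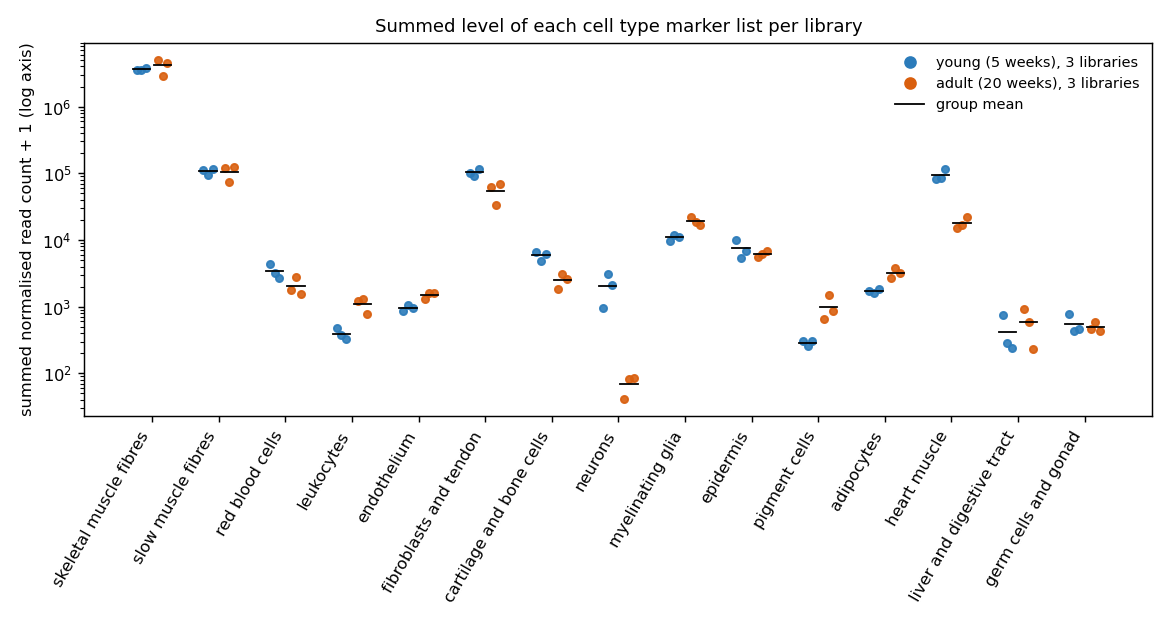
Summed normalised read count plus 1 (log axis) of each marker list in the 3 young and 3 adult libraries, with points for libraries and black lines for group means. Neuron markers lie between 939 and 3060 in young and between 40 and 85 in adult libraries, and leukocyte markers lie higher in all 3 adult libraries.

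Between the ages, 3855 entries were called, meaning that limma gave a Benjamini-Hochberg adjusted p no higher than 0.05 and that the ages differed at least 2-fold, or by 1 on the log2 scale. They made up 22.1% of the tested entries, with 1868 higher in adult muscle (10.7%) and 1987 lower (11.4%). The values of the groups did not overlap in 3794 of the called entries, against 50.2% of all tested entries. Most called entries thus have separate groups, so that the separation reported for called genes below is no further support. The split depended on the scaling: with all libraries brought to equal totals the median of all genes moved to -0.12, and 1422 entries were higher and 2312 lower. Without the fold limit, 2831 entries were higher and 3006 lower. Below, an entry number after a gene name marks that entry only, and 2731 of the names have several tested entries. The number of entries of a name is not given each time.

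The median sizes of the changes were similar in both directions, with a median difference of 1.5 among the higher and -1.63 among the lower entries (log2). The median standard error was 0.31 over all entries. Large changes were more frequent among the lower entries, with log2 differences of at least 3 in 87 higher and 204 lower entries. Of the 9532 entries with a mean under 50, 835 were higher and 1209 lower, while of the 7922 more abundant ones 1033 were higher and 778 lower. In 115 entries each young library held at most 3 normalised reads and each adult library more, and the reverse held for 197 entries.

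The gene families differed widely in how many of their members were called. The shares ran from 72.3% of the axon and synapse genes and 70.3% of the mitosis genes called lower to 71.4% of the glucocorticoid and FOXO responsive genes called higher, beside 11.4% and 10.7% over all genes. At the other extreme, 1 of 60 entries for cytosolic ribosomal proteins was called. All lists were written with earlier results of these libraries known, so that their directions describe the libraries and are no independent evidence.

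**Figure D2:**
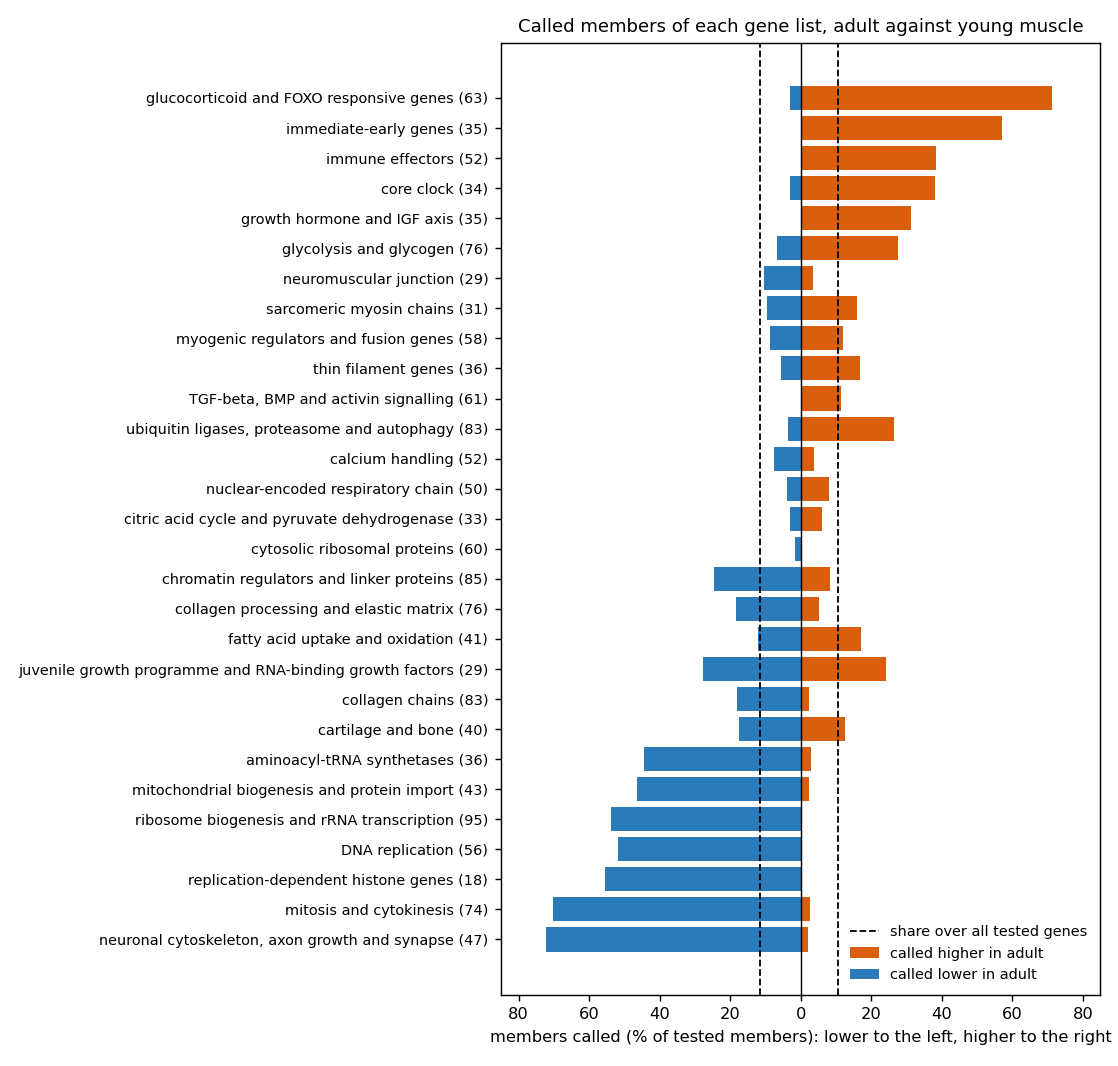
Share of tested members (%) called lower (bars to the left) and higher (bars to the right) in adult muscle for each gene list, with the number of tested members in parentheses and lists ordered by median difference. Dashed lines give the shares over all tested genes, 11.4% lower and 10.7% higher.

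Among the 20 named genes with the smallest p-values that were higher in adult muscle, 5 belong to the list of glucocorticoid and FOXO responsive genes described further on. ZBTB16B (826927), a transcriptional repressor induced by glucocorticoids in mammals, had 27, 28 and 35 normalised reads in young and 889, 1575 and 1435 in adult muscle (log2 difference 5.36 ± 0.28, SE; adjusted p 1.35e-06). SIK1 (673243), a kinase induced by cyclic AMP, went from 186, 198 and 134 to 2191, 1816 and 1919 (3.52 ± 0.21). ARRDC3A (957706), an arrestin-like adaptor, and FNIP1 (355284), a partner of folliculin at the lysosome, rose by 3.57 ± 0.27 and 3.52 ± 0.28, with adult values of 1407, 2247 and 1697 and of 662, 694 and 1168.

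Other genes of this group serve metabolism and signalling. PDE1B (867431), a calcium-dependent phosphodiesterase of cyclic nucleotides, had 10, 9 and 14 reads in young and 302, 591 and 355 in adult muscle (5.08 ± 0.33). CSRNP1A (962503), a nuclear factor of the immediate-early kind, rose from 7, 9 and 11 to 472, 190 and 312 (4.95 ± 0.31). The cholesterol exporter ABCA1A (142126) had young values of 330, 250 and 249 and adult values of 1492, 1454 and 1047 (2.26 ± 0.18), and 1 of 2 entries for the cytochrome c oxidase subunit COX4I1 (614992) rose from 65, 94 and 69 to 1176, 593 and 722 (3.39 ± 0.27). SLC16A12, EVA1C, IP6K2, SOGA3B, TMEM100, DSCAML1, BHLHE40 and HDAC9B, which are also among the 20, rose by between 1.92 and 3.38. By the rule that chose them, none of these genes has overlapping groups.

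The 20 named genes with the smallest p-values among the lower ones included factors of translation, chromatin and protein folding. For EIF4E, which binds the cap of messenger RNAs, 1 of 2 tested entries (674790) had 154, 211 and 217 normalised reads in young and 18, 9 and 15 in adult muscle (-3.73 ± 0.29, adjusted p 2.74e-05). SMARCA5 (407941), the motor of a nucleosome remodelling complex, was 468, 482 and 464 in young and 77, 57 and 76 in adult fish (-2.75 ± 0.22). For HSPA4, a co-chaperone of the heat shock proteins, 1 of 2 tested entries (454270) went from 338, 420 and 320 to 62, 54 and 47 (-2.70 ± 0.21). The young libraries agree closely in these genes, and each adult value is less than any young one.

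Further members of the lower group were NUP62L (387940), a nuclear pore protein (-2.60 ± 0.21), the phosphatase PPM1G (11155, -2.79 ± 0.24) and the N-terminal acetylation factor NAA25 (651175, -1.88 ± 0.18). ABCF2A (96176) was 2183, 2130 and 2433 in young and 578, 652 and 766 in adult muscle (-1.76 ± 0.16). ATAD1 (961304), an ATPase that extracts misplaced proteins from the outer mitochondrial membrane, was lower by 2.28 ± 0.21.

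**Figure D3:**
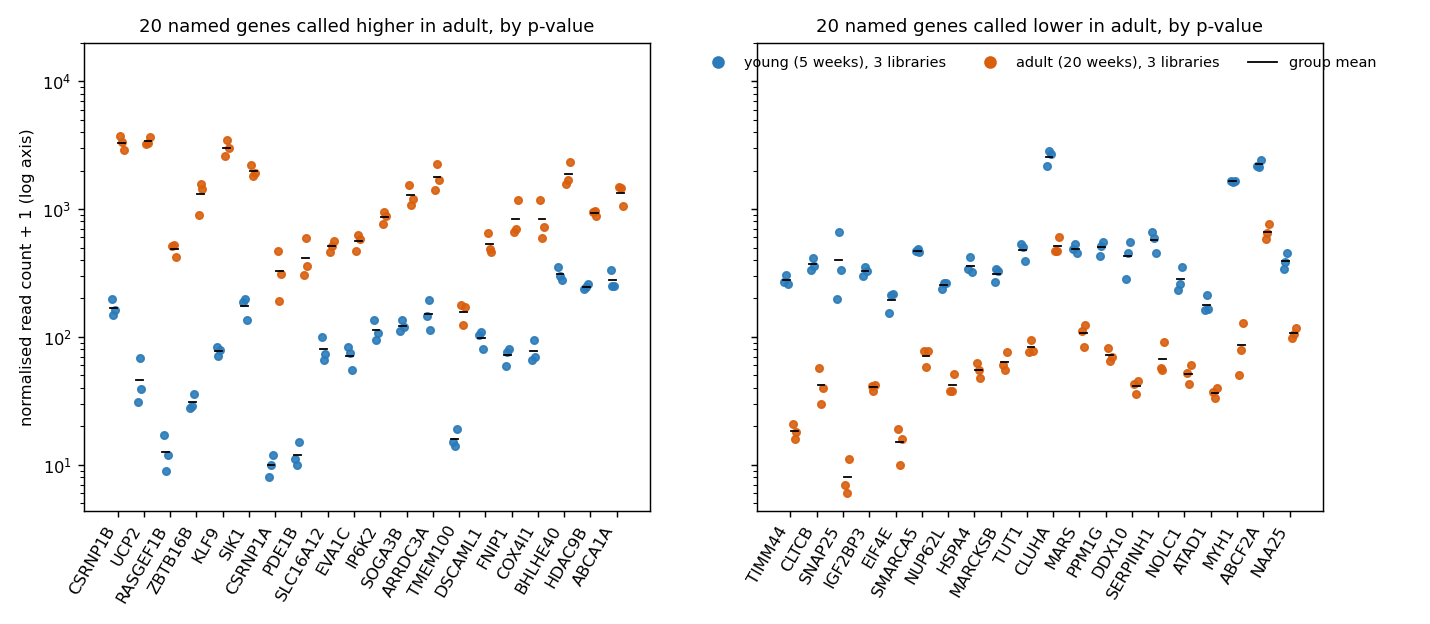
Normalised read count plus 1 (log axis) of the 20 named genes with the smallest p-values in each direction, left for those higher and right for those lower in adult muscle, with a point per library and black lines for group means. No gene has overlapping groups, which the rule required.

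Genes of DNA replication were lower in adult muscle. Of 56 tested entries limma called 29 lower (51.8%) and 0 higher (37 and 1 at an unadjusted p under 0.05), and the median difference was -1.44 against 0.00 over all genes. The list holds the MCM helicase that opens the double strand, polymerases, origin factors and nucleotide synthesis. MCM2 (892743), a helicase subunit, had 251, 391 and 306 normalised reads in young and 36, 21 and 50 in adult muscle (-3.17 ± 0.38, adjusted p 0.000178). MCM3 (903708) fell from 97, 133 and 138 to 12, 17 and 19 (-2.87 ± 0.28), and MCM6 (687728) from 143, 205 and 175 to 45, 40 and 50 (-1.92 ± 0.20). All adult values of these subunits lie under all young ones.

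Beside the helicase, the chromatin assembly factor CHAF1A (548221) fell by 2.39 ± 0.23, the ribonucleotide reductase subunit RRM1 (205037) by 2.14 ± 0.23 and the fork protection factor TIMELESS (315306) by 2.57 ± 0.29. The sliding clamp PCNA (956053), named after its values were seen, was not called: it had 123, 100 and 116 reads in young and 112, 160 and 120 in adult muscle (0.20 ± 0.22, adjusted p 0.53). The clamp loader RFC1 (232328), the most abundant member, had 2214, 2205 and 2616 and then 1845, 1805 and 2343 (-0.24 ± 0.15, adjusted p 0.259). These values overlap between the ages.

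Mitosis and cytokinesis formed the family with the second highest share of lower members, 52 of 74 entries (70.3%) with a median of -1.97, and 2 entries were higher. Leaving out 1 library gave 41 to 53 lower entries. The lowest count was without young replicate 1, and it was 43 without adult replicate 3. Young replicate 1 also stood apart in germ cell genes, and the part of germ cells in the count was not tested. ANLN (622626), the scaffold of the cleavage furrow, had 1063, 1176 and 621 normalised reads in young and 98, 110 and 103 in adult muscle (-3.14 ± 0.34, adjusted p 0.000108). ASPM (591963), a spindle pole protein, fell from 287, 286 and 227 to 28, 39 and 26 (-3.08 ± 0.35), and BUB1 (570335), a kinase of the spindle checkpoint, from 90, 57 and 65 to 10, 6 and 5 (-3.19 ± 0.37). DLGAP5 (455216), the passenger protein INCENP (503380) and the kinetochore protein CENPF (967209) fell by 3.19 ± 0.35, 2.13 ± 0.26 and 2.5 ± 0.26. None of these 6 genes overlapped between the groups.

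Both higher entries of the mitosis list stood against the rest. KIF20B (620904), 1 of 2 entries of this kinesin, rose from 65, 45 and 51 to 183, 206 and 210 (1.89 ± 0.19), while its other entry was lower. CIT (349753), the citron kinase, rose from 42, 40 and 24 to 105, 86 and 72 (1.31 ± 0.26). The microtubule polymerase CKAP5 (790859), the most abundant member, was not called (467 and 356 as group means, -0.40 ± 0.16, adjusted p 0.084).

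Replication-dependent histone genes supply new chromatin during S phase, and 10 of their 18 entries were lower (55.6%, median -1.58) with 0 higher by limma, or 11 and 0 at an unadjusted p under 0.05. The largest was 1 of 5 entries of HIST2H2BE (78610), which had 781, 772 and 703 normalised reads in young and 48, 95 and 118 in adult muscle (-3.19 ± 0.47, adjusted p 0.000562). HIST2H3D (821510) fell from 123, 263 and 264 to 36, 78 and 36, whereas the most abundant entry of that name (975191) had 637, 674 and 705 and then 532, 801 and 629 (-0.06 ± 0.28). HIST1H4I (812590) had 21, 8 and 17 reads in young and 1, 2 and 1 in adult muscle and was at least 5.11-fold lower. The 18 entries carry 7 gene names, and with 1 entry per name 2 of 7 were lower, so the count rests on several entries per name.

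The genes of juvenile growth moved in both directions, with 8 of 29 entries lower (27.6%) and 7 higher (24.1%). The IGF2BP proteins bind growth-related messenger RNAs in the fetus and in growing tissue, and 3 of their 4 entries were lower. IGF2BP3 (784281) had 298, 349 and 329 normalised reads in young and 40, 37 and 41 in adult muscle (-3.01 ± 0.23, adjusted p 2.74e-05). IGF2BP1 (894086) fell from 80, 70 and 144 to 7, 18 and 16 (-2.78 ± 0.46) and IGF2BP2A (629795) from 434, 399 and 474 to 180, 223 and 203 (-1.11 ± 0.18). The 3 adult libraries lie below the 3 young ones for each.

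Other growth regulators of the list fell as well. EZH2 (386745), the enzyme that places a silencing methyl mark on histone H3 in dividing cells, had 133, 157 and 114 and then 31, 46 and 30 reads (-1.90 ± 0.25), and the cyclin CCND2 (473935) 154, 149 and 141 and then 68, 50 and 95 (-1.1 ± 0.23, under the limit without adult replicate 2). Of the higher members, MYCN (906938), a growth-promoting transcription factor, had 672, 628 and 718 in young and 1643, 1404 and 1793 in adult muscle (1.26 ± 0.20, adjusted p 0.00098). Both entries of ARID3B (440490 and 175000) rose, by 2.14 ± 0.32 and 2.01 ± 0.33, and PLAGL2 (86244) rose by 1.27 ± 0.20. SOX4 (624430) was 63, 62 and 55 and then 281, 81 and 110 (1.17 ± 0.37, adjusted p 0.0307), a call that was lost without any 1 of the young libraries or without adult replicate 1.

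Genes of the growth hormone and IGF axis were on the higher side in adult muscle, with 11 of 35 entries higher (31.4%) and 0 lower by limma, 15 and 1 at an unadjusted p under 0.05, and a median of 0.53. IRS2 (891959), the adaptor that couples insulin and IGF receptors to kinases in the cell, had 434, 458 and 628 normalised reads in young and 2760, 1868 and 2451 in adult fish (2.22 ± 0.22, adjusted p 8.43e-05). The growth hormone receptor GHR (274331) rose from 306, 323 and 297 to 759, 796 and 760 (1.32 ± 0.14), and 2 of its other 3 entries were higher too. The insulin receptor INSRA (727237) had 282, 273 and 290 in young and 600, 742 and 715 in adult libraries (1.27 ± 0.15), and IGF1R (476182) 70, 66 and 62 and then 176, 226 and 143 (1.42 ± 0.21). The groups are separate for all of these genes.

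Among the ligands, IGF2 (134869) rose from 115, 85 and 90 to 251, 222 and 294 (1.4 ± 0.29, adjusted p 0.00429). IGF1 (253887), named after its values were seen, had 20, 12 and 27 reads in young and 4, 22 and 10 in adult muscle, which overlap (-0.87 ± 0.75, adjusted p 0.404). The binding protein IGFBP5B (655495) rose from 482, 346 and 423 to 861, 904 and 804 (1.05 ± 0.19), a difference that fell short of the 2-fold limit with equal totals or without young replicate 2.

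Ribosome biogenesis was lower as a family: limma called 51 of 95 entries lower (53.7%) and 0 higher, against 78 and 0 at an unadjusted p under 0.05, and the median was -1.07. These genes transcribe, cut and modify ribosomal RNA in the nucleolus and are not themselves part of the ribosome. DDX10 (623059), a helicase of the small subunit pathway, had 283, 450 and 555 normalised reads in young and 42, 35 and 44 in adult muscle (-3.33 ± 0.29, adjusted p 3.98e-05). DKC1 (206282), the enzyme of pseudouridine in ribosomal RNA, fell from 1315, 1351 and 1861 to 222, 276 and 375 (-2.39 ± 0.29), and the nucleolar scaffold NOLC1 (47019) from 233, 257 and 350 to 51, 42 and 59 (-2.43 ± 0.22). BOP1 (62949), UTP20 (834556) and nucleostemin (GNL3, 302351) fell by 2.06 ± 0.20, 1.6 ± 0.19 and 1.75 ± 0.21.

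No overlap between young and adult was seen for these 6 genes, as for 3794 of the 3855 called entries. The most abundant member, the helicase DDX21 (198142), had 6197, 6284 and 6594 reads in young and 7624, 6553 and 9368 in adult muscle and was not called (0.29 ± 0.17, adjusted p 0.219). The proteins of the mature cytosolic ribosome did not follow: of 60 entries limma called 0 higher (1 at an unadjusted p under 0.05) and 1 lower, RPS27 (945435, 228 and 108 as group means, a call lost without adult replicate 1), and the median was -0.15. All adult values lay below all young ones in 13 of the 60 entries, a share below the 26.3% of all tested entries. RPL6 (121628), the most abundant, had 13265, 14302 and 14928 in young and 13910, 12918 and 16639 in adult libraries (0.03 ± 0.20).

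The aminoacyl-tRNA synthetases, which charge transfer RNAs with amino acids, had 16 of 36 entries lower (44.4%) and 1 higher, with a median of -0.80. GARS (682383) had 1893, 2133 and 1822 normalised reads in young and 430, 330 and 698 in adult muscle (-2.07 ± 0.23, adjusted p 0.000111). WARS (19742) fell from 918, 1142 and 702 to 179, 136 and 224 (-2.35 ± 0.23), YARS (92591) from 439, 368 and 359 to 49, 68 and 87 (-2.53 ± 0.26), and MARS (102847) from 482, 527 and 448 to 111, 82 and 123 (-2.21 ± 0.19). NARS (632817) and LARSB (239578) fell by 1.55 ± 0.16 and 1.54 ± 0.16. The adult libraries lie below the young ones in each case.

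In this family the most abundant member, AARS (652823), had 3836, 4241 and 4075 and then 2810, 2515 and 3203 reads, a difference under 2-fold that was not called (-0.52 ± 0.22, adjusted p 0.0919). The single higher entry was EARS2 (451192), the mitochondrial enzyme for glutamate, with 46, 45 and 48 in young and 89, 143 and 80 in adult muscle (1.1 ± 0.23), a call lost with equal totals and without adult replicate 2.

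Genes that build mitochondria and import their proteins were lower, with 20 of 43 entries lower (46.5%), 1 higher and a median of -0.82. CLUHA (759680), which binds messenger RNAs of mitochondrial proteins, had 2150, 2865 and 2693 normalised reads in young and 469, 467 and 608 in adult muscle (-2.32 ± 0.19, adjusted p 3.32e-05). ATAD3B (519425), a membrane ATPase that holds mitochondrial DNA, fell from 503, 597 and 505 to 33, 31 and 63 (-3.7 ± 0.36), and C10ORF2 (780991), the helicase of mitochondrial DNA, from 104, 159 and 142 to 17, 10 and 18 (-3.11 ± 0.30). The import receptor TOMM70A (392283) had 454, 520 and 492 and then 152, 137 and 137 reads (-1.78 ± 0.17), and the co-chaperone of the import motor GRPEL1 (593074) fell by 1.79 ± 0.18. All values of the groups are apart.

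The 1 higher member of the mitochondrial list was PPARGC1A (806349), the coactivator known as a master regulator of mitochondrial biogenesis in mammals. It had 174, 308 and 403 reads in young and 1087, 1067 and 1710 in adult muscle (2.17 ± 0.28, adjusted p 0.000252), and the adult values are all above the young ones. Its relative PPRC1, named after its values were seen, fell in 1 of 2 entries (158041), from 1063, 1102 and 1347 to 111, 98 and 184 (-3.20 ± 0.33).

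Genes of the nuclear-encoded respiratory chain had 4 of 50 entries higher (8.0%, beside 10.7% of all genes) and 2 lower (4.0%, beside 11.4%). Their median was 0.05, and 2 were higher with equal totals. The most abundant member, the ATP synthase subunit ATP5B (494010), had 5260, 6258 and 6030 and then 4311, 4739 and 5216 (-0.30 ± 0.15, adjusted p 0.146). Subunits of cytochrome c oxidase moved apart: beside COX4I1, COX7A1 (779973), the subunit form of heart and skeletal muscle in mammals, rose from 218, 297 and 248 to 506, 514 and 531 (1.03 ± 0.18), whereas COX7A2 (570498), its more widespread relative, had 14, 21 and 23 and then 4, 8 and 7 (-1.49 ± 0.43) and COX5B (971007) fell from 77, 113 and 105 to 18, 31 and 25 (-1.97 ± 0.30). COX7A1 dropped under the 2-fold limit with equal totals or without young replicate 1, and COX7A2 was not called without young replicate 2, young replicate 3 or adult replicate 1.

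Of the citric acid cycle and pyruvate dehydrogenase genes, 2 of 33 entries were higher (6.06%, beside 10.7% of all genes) and 1 was lower (3.03%, beside 11.4%). Their median was -0.13, and 1 was higher without young replicate 2 or young replicate 3. PDK3A (839717), a kinase that turns pyruvate dehydrogenase off, rose from 46, 53 and 45 to 109, 130 and 94 (1.18 ± 0.19). OGDH was higher in 1 of 2 entries (580002), with 31, 19 and 12 and then 67, 43 and 37 (1.26 ± 0.35). This call was lost without young replicate 2, young replicate 3 or adult replicate 1, and the other entry was not called. PCK2 (245777) fell from 197, 74 and 45 to 26, 24 and 14 (-2.03 ± 0.48). IDH2 (775283), the most abundant member, had nearly equal means of 9630 and 9522.

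Glycolysis and glycogen genes were higher in adult muscle in 21 of 76 entries (27.6%) and lower in 5, with a median of 0.51. The count was 13 without young replicate 1, 13 without young replicate 2 and 12 with equal totals. PFKMA (559975), the muscle phosphofructokinase that sets the pace of glycolysis, had 858, 884 and 855 normalised reads in young and 4087, 3716 and 2617 in adult muscle (1.98 ± 0.20, adjusted p 8.49e-05). The enzymes that make or remove its activator, PFKFB3 (347617) and PFKFB1 (178995), rose from 315, 211 and 317 to 1241, 982 and 892 (1.89 ± 0.22) and from 354, 279 and 371 to 1301, 1294 and 1274 (1.95 ± 0.24). Pyruvate kinase (PKMB, 264310) rose from 7973, 7773 and 8019 to 22541, 20598 and 22167 (1.46 ± 0.22). In none of these did the groups overlap.

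The muscle fructose bisphosphatase FBP2 (917602) rose from 846, 1645 and 659 to 6436, 4823 and 3236 (2.26 ± 0.39), and the glucose transporter SLC2A1B (297788) from 70, 79 and 58 to 179, 251 and 206 (1.6 ± 0.24). The lower members included forms typical of other tissues in mammals, and also SLC16A3 (414607, -1.86 ± 0.40) and 1 of 2 entries of UGP2 (737383, -1.44 ± 0.34). ENO2, the enolase of neurons, was lower in 1 of 2 entries (728429), with 38, 141 and 102 reads in young and 3, 6 and 2 in adult muscle (-4.24 ± 0.56). The muscle enolase ENO3 (518783) instead rose from 16458, 20055 and 12971 to 64946, 82618 and 34750 (1.81 ± 0.38). The hexokinase HK1 was lower in 1 of 3 entries (380531), by 1.25 ± 0.21, and HKDC1 (380450) fell by 2.43 ± 0.32. For HK2, the hexokinase of muscle and fat, 2 of 4 entries were higher, 1 of which (237625) lost its call in most alternatives. ENO3 and HK2 were named after their values were seen. Neuron markers moved with ENO2, and their part in its fall was not tested.

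Genes of fatty acid uptake and oxidation had 7 of 41 entries higher (17.1%, beside 10.7% of all genes) and 5 lower (12.2%, beside 11.4%), with a median of -0.38. With equal totals or the replicate number as a block 5 were higher. The lipase that takes fat from the blood, LPL, rose in both of its entries, from 683, 684 and 896 to 1390, 1990 and 1650 (704987, 1.15 ± 0.17) and from 279, 164 and 295 to 479, 997 and 731 (704965, 1.56 ± 0.28). The adipocyte regulator PPARG (500431) rose from 18, 13 and 18 to 40, 39 and 39 (1.23 ± 0.25) and the lipase PNPLA2 (348710) from 23, 10 and 19 to 61, 58 and 37 (1.57 ± 0.33). The adipocyte markers called higher are these entries of LPL and PPARG themselves. The other tested adipocyte markers, LIPEA (-0.38), LIPEB (0.51) and CFD (0.57), were not called. The share of adipocytes in the result was not tested.

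The 5 lower entries included the following. HADHAB (550523), the alpha subunit of the trifunctional protein, had 1006, 1257 and 1159 reads in young and 494, 454 and 685 in adult muscle (-1.08 ± 0.30), and the carnitine carrier SLC25A20 (541475) 122, 157 and 134 and then 52, 68 and 75 (-1.08 ± 0.36). The first call was lost without young replicate 2, young replicate 3 or adult replicate 2, and the second without any 1 of the 6 libraries. ECI2 (520814) and the acyl-CoA synthetase ACSL3B (964718) fell by 1.45 ± 0.26 and 2.12 ± 0.27. FABP3 (163385), the most abundant member, had 2110, 2140 and 2467 and then 1545, 1200 and 884, a difference under 2-fold (-0.92 ± 0.28, adjusted p 0.0243).

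Myosin chains showed a change in single members rather than in the family. Of 31 entries 3 were lower (9.68%, beside 11.4% of all genes) and 5 higher (16.1%, beside 10.7%), and the median was 0.25. The higher ones are the called entries of MYH4 and MYBPC1 given below, and MYBPC1 is a myosin binding protein rather than a myosin chain. Each myosin heavy chain gene encodes a motor with its own speed, and fish express many of them in turn as they grow. MYH6 (202270) had 81654, 84930 and 115913 normalised reads in young and 14506, 15341 and 21000 in adult muscle, 5.56-fold lower on the group means (-2.48 ± 0.28, adjusted p 0.000128). MYH2 (844052) had 57567, 94307 and 121533 and then 18475, 3893 and 7534, 9.14-fold lower (-3.42 ± 0.46). MYH1 was called lower in 1 of 2 entries (966928). This entry went from 1647, 1636 and 1656 to 49, 78 and 127, 19.4-fold lower (-4.37 ± 0.40), and its young values were nearly equal.

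On the higher side, 3 of 5 entries named MYH4, the gene of the fastest fibres in mammals, were called. The largest difference was in the entry 800895, which rose from 9143, 4721 and 6191 to 18574, 15972 and 17843 (1.44 ± 0.24, adjusted p 0.00115). The entry 597772 rose by 1.27 ± 0.38. The entry 39189 rose by 1.11 ± 0.35, from 3820, 2903 and 4623 to 4314, 10314 and 11516, so that its groups overlap. Both calls were lost without young replicate 2 or either of adult replicates 2 and 3, that of 597772 also without young replicate 3, and that of 39189 with equal totals or without young replicate 1. The entry 488947, named after its values were seen, has the most reads of that name. It had 196571, 140058 and 192199 and then 268125, 134903 and 243619 (0.25 ± 0.38). Both called entries of MYBPC1, the myosin binding protein of slow fibres (696246 and 206874), rose by 1.26 ± 0.34 and 1.08 ± 0.38. The first call was lost without young replicate 2 or adult replicate 2, and the second without any 1 of the 6 libraries or with equal totals. The count of 5 higher members was 3 without young replicate 1, 1 without young replicate 2, 3 without young replicate 3, 1 without adult replicate 2, 2 without adult replicate 3, 8 without old replicate 1, 8 from the young and adult libraries alone and 3 with equal totals. The names come from the annotation of a genome with many similar myosin copies, so that reads could be split unevenly between them.

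The slow heavy chain MYH7, in its entry with the most reads (815926), was not called, with 108021, 91996 and 111633 normalised reads in young and 113528, 62257 and 114215 in adult muscle (-0.15 ± 0.31). The fast light chain MYL1 (655607) had 257573, 219477 and 283437 and then 253377, 163857 and 250017 (-0.21 ± 0.31). In both the adult replicate 2 was the lowest library.

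Thin filament genes had 6 of 36 entries higher (16.7%, beside 10.7% of all genes) and 2 lower (5.56%, beside 11.4%), with a median of 0.19. Without young replicate 2 the number of higher entries was 3. Troponin makes contraction depend on calcium, and it exists in fast, slow and cardiac forms. TNNT2D (507527), a cardiac form of troponin T, had 130, 134 and 153 reads in young and 968, 2110 and 1116 in adult muscle (3.24 ± 0.40, adjusted p 0.000212). TNNT2 rose in 1 of 2 entries (547110), from 154, 121 and 243 to 692, 1261 and 1214 (2.62 ± 0.39). Its other entry (698617) had 10, 21 and 15 and then 4, 84 and 22 and was not called. Slow troponin genes were also higher, in 1 of 2 entries each. TNNC1 (227064) had 513, 609 and 598 and then 1516, 2691 and 2895 (1.99 ± 0.25). TNNT1 (465342) had 234, 161 and 381 and then 608, 916 and 881 (1.69 ± 0.44, lost without young replicate 2). The other entries of these 2 names were not called. Of 18 slow fibre marker entries 4 were called higher (22.2%, beside 10.7% of all genes), and these include TNNC1, TNNT1 and TNNI1 themselves. The other was 1 of 2 entries of PROX1 (133240, 1.16 ± 0.32). Its call was lost with equal totals or without young replicate 2 or adult replicate 2. The part of the amount of slow fibres in the result was not tested.

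TNNI1, the slow troponin I, was called higher in 1 of 2 entries (463125). This entry had 194, 190 and 176 in young and 190, 1501 and 778 in adult muscle, so that 1 adult library lies within the young range (1.69 ± 0.59, adjusted p 0.045). The call was lost with equal totals or without any 1 of the young libraries, adult replicate 2, adult replicate 3 or old replicate 3. Among the actin genes, 1 of 4 entries named ACTC1 (332591) fell from 3066, 3028 and 7399 to 343, 204 and 427, 13.9-fold lower (-3.72 ± 0.65), and another (98840) from 217, 105 and 239 to 58, 42 and 77 (-1.6 ± 0.39). The entry of that name with the most reads (337759) had 478978, 496513 and 511401 and then 509214, 255762 and 458664 and was not called (-0.34 ± 0.37).

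**Figure D4:**
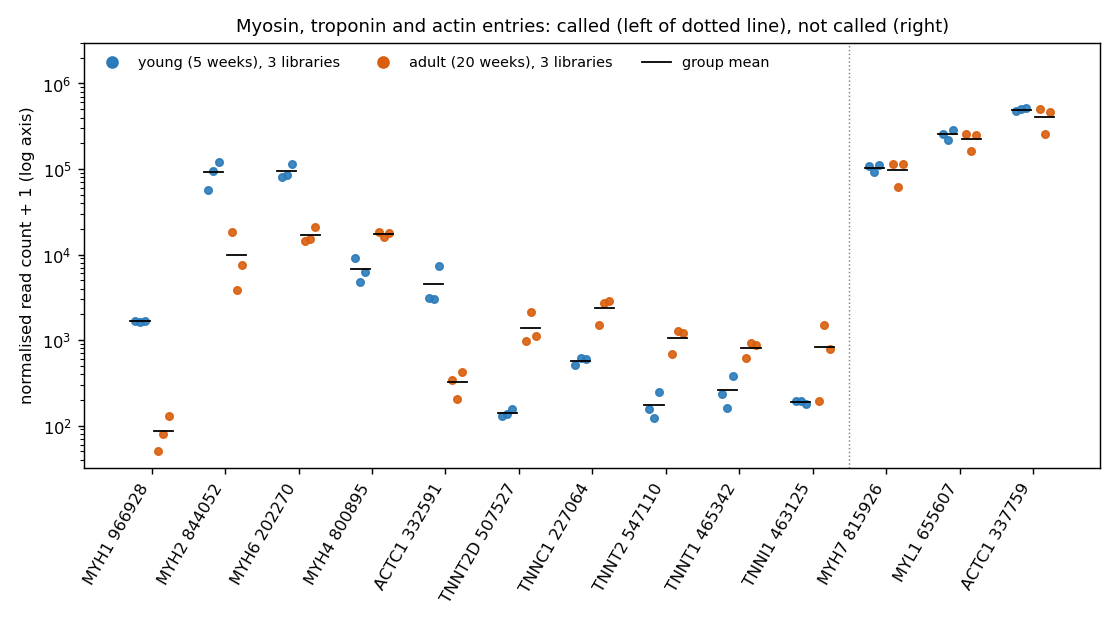
Normalised read count plus 1 (log axis) of myosin, troponin and actin entries in each library, with black lines for group means; entries left of the dotted line were called and those right of it were not. The plotted entries of MYH1, MYH2 and MYH6 and 1 ACTC1 entry are lower in each adult library. Those of TNNT2D, TNNC1 and TNNT2 are higher in each.

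Calcium handling changed in few members, 2 of 52 entries higher (3.85%, beside 10.7% of all genes) and 4 lower (7.69%, beside 11.4%), with a median of 0.07. Single entries of the calcium pumps of the reticulum moved apart. ATP2A1, the pump of fast fibres, rose in 1 of 2 entries (729165), from 866, 1026 and 1073 to 1458, 2407 and 2715 (1.11 ± 0.28). This call was lost with equal totals or without adult replicate 3. ATP2A2, the pump of slow and cardiac fibres, fell in 1 of 2 entries (859223), from 582, 667 and 566 to 223, 238 and 227 (-1.39 ± 0.17, adjusted p 0.000188). The other entry of each pump was not called. Of 7 entries of the release channel RYR3, 2 were lower, 1 of which (502559) lost its call with the replicate number as a block and without young replicate 2, young replicate 3 or any 1 of the adult libraries. The other (18846) had 169, 160 and 373 in young and 72, 30 and 33 in adult muscle (-2.35 ± 0.44). The store sensor STIM1 (258956) rose from 89, 93 and 68 to 224, 222 and 150 (1.23 ± 0.23). Parvalbumin (PVALB4, 455338), the soluble calcium buffer of fast fish muscle, had 209503, 199734 and 248340 and then 255694, 113030 and 166103 (-0.37 ± 0.33).

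Regulators of myogenesis and fusion had 7 of 58 entries higher (12.1%) and 5 lower (8.62%), near the 10.7% and 11.4% of all genes. Their median was 0.22, and 11 were higher without adult replicate 2. The members below are therefore given as single genes. MYOD1 (949403), which commits cells to the muscle lineage, had 925, 928 and 1074 normalised reads in young and 572, 278 and 354 in adult muscle (-1.34 ± 0.25, adjusted p 0.00203). MYOG (302542), which drives their differentiation, fell from 258, 227 and 245 to 87, 130 and 129 (-1.09 ± 0.24, under the limit without adult replicate 1). JAM2B (166874), a junctional adhesion molecule, fell from 121, 87 and 84 to 18, 4 and 14 (-3.11 ± 0.53), and the Notch target HEY1 (180804) from 34, 33 and 34 to 5, 5 and 5 (-2.53 ± 0.28). The groups were apart for all 4.

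Of the MEF2 factors, which act with the myogenic regulators, all 3 entries of MEF2A as well as MEF2AA (214191) were higher, and MEF2AA had 352, 287 and 317 in young and 959, 580 and 576 in adult muscle (1.11 ± 0.20). The calls of MEF2AA and of 1 MEF2A entry (109347) were lost without adult replicate 1, the first also with equal totals and the second without young replicate 2 or young replicate 3. FST (619944), which binds and blocks myostatin, had 33, 33 and 20 and then 65, 102 and 51 (1.29 ± 0.34), a call lost with equal totals and without young replicate 3 or adult replicate 2. The satellite cell factor PAX7 (837283) had 62, 57 and 64 in young and 82, 36 and 55 in adult muscle (-0.16 ± 0.31), MYF5 (667286) had 185, 258 and 187 and then 186, 204 and 254 (0.04 ± 0.22), and myostatin (MSTNB, 177553) had 147, 84 and 57 and then 175, 86 and 131 (0.49 ± 0.48). These last 3, named after their values were seen, overlapped between the ages.

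Collagen chains were lower in 15 of 83 entries (18.1%, beside 11.4% of all genes) and higher in 2, with a median of -0.53. Without young replicate 3 the count of lower entries was 8, in a setting where 9.01% of all tested entries were lower. COL2A1A (221083), a gene of the main collagen of cartilage, had 1140, 1080 and 760 normalised reads in young and 5, 137 and 108 in adult muscle (-4.45 ± 0.94, adjusted p 0.0043), while its paralogue COL2A1B (82382) had 1675, 948 and 1337 and then 662, 662 and 825 and was not called (-0.85 ± 0.27). COL9A1 (925931), a collagen on the surface of cartilage fibrils, had 43, 168 and 121 and then 0, 0 and 4 (-5.82 ± 0.72), and COL8A1A (518056), a chain of network-forming collagen, had 7, 38 and 19 and then at most 1 read, at least 7.11-fold lower. Adult libraries lie under the young ones in COL2A1A, COL9A1 and COL8A1A.

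The collagens of connective tissue with the most reads changed by about the 2-fold limit. COL1A1A (370381) had 35452, 33538 and 42485 in young and 20379, 11756 and 23393 in adult muscle (-1.06 ± 0.35, adjusted p 0.0377), COL1A1B (253091) was lower by 1.12 ± 0.40, and COL1A2 (722859) had 32163, 31269 and 39332 and then 20375, 10639 and 23602, just under the limit (-0.98 ± 0.34). The calls of COL1A1A and COL1A1B were lost with the replicate number as a block and without any 1 of young replicates 1 to 3 or of adult replicates 1 and 2, that of COL1A1B also without old replicate 3. COL10A1 (149179), made by maturing cartilage and in fish also by bone cells, fell from 1166, 1053 and 2272 to 296, 447 and 502 (-1.79 ± 0.47), a call lost without young replicate 3. COL4A6 (856149), a basement membrane chain, rose from 46, 44 and 33 to 110, 86 and 88 (1.19 ± 0.20).

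Genes that fold, modify and crosslink collagen, with elastic fibre genes, had 14 of 76 entries lower (18.4%, beside 11.4% of all genes) and 4 higher. Their median was -0.36. SERPINH1 (540930), the chaperone of collagen in the endoplasmic reticulum, had 665, 590 and 454 normalised reads in young and 56, 54 and 90 in adult muscle (-3.10 ± 0.27, adjusted p 4.11e-05). Its partners CRTAP (402377) and FKBP10A (86743) fell from 40, 40 and 42 to 16, 11 and 17 (-1.43 ± 0.27) and from 73, 69 and 66 to 30, 17 and 20 (-1.63 ± 0.25). FBN3 (671211), a fibrillin of developing microfibrils, had 635, 471 and 591 and then 110, 121 and 177 (-2.07 ± 0.22). No library of 1 age lies within the range of the other for these genes.

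Fibronectin differed between its entries. FN1 (402914) fell from 1631, 1554 and 1451 to 684, 637 and 969 (-1.04 ± 0.22), a call lost without adult replicate 1 or adult replicate 2, while the other entry (702064) had 2701, 3622 and 2606 and then 3238, 6589 and 3234 (0.48 ± 0.28, adjusted p 0.215). The sum of the fibroblast and tendon markers given above moved with the matrix genes, though 2 of its 14 entries were called. These markers share COL1A1 and COL1A2 with the matrix genes, and their part in the result was not tested.

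Genes of cartilage and bone had 7 of 40 entries lower (17.5%, beside 11.4% of all genes) and 5 higher (12.5%, beside 10.7%), with a median of -0.77. Without young replicate 2, 4 were lower, and 11 were from the young and adult libraries alone. Both entries of MATN3, a matrix protein of cartilage, were lower: the first (175743) had 18, 87 and 63 normalised reads in young and 0, 1 and 0 in adult muscle, at least 18.7-fold lower, and the second (713231) was at least 9.11-fold lower. SP7 (248461), the transcription factor of bone-forming cells, fell from 102, 104 and 110 to 22, 37 and 50 (-1.58 ± 0.36), and aggrecan (ACANA, 936748) from 94, 130 and 78 to 54, 10 and 42 (-1.75 ± 0.50, a call lost without young replicate 2). UCMAB (898431), an inhibitor of calcification in cartilage, stood against this and rose from 10, 20 and 10 to 72, 53 and 61 (2.20 ± 0.31), as did the factor RUNX3 (910834) by 1.59 ± 0.21. MATN1 (530564), another cartilage matrix protein, had 914, 184 and 304 and then 223, 840 and 380, with no separation of the ages. Cartilage and bone markers, with 8 of 26 tested entries lower, overlap with this list, and the part of such cells in the result was not tested.

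Genes of axons and synapses had the largest fall of all lists, with 34 of 47 entries lower (72.3%), 1 higher and a median of -2.77, or -2.66 with the 8 entries that are at the floor of 3 reads in 1 age set to their bound. Neurofilaments fill the axons of motor and sensory nerves. NEFMA (199420), the medium neurofilament, had 294, 1039 and 768 normalised reads in young and 0, 7 and 7 in adult muscle (-7.27 ± 0.75, adjusted p 9.07e-05). NEFH (20380), the heavy chain, had 78, 229 and 244 and then 0, 2 and 2, at least 61.2-fold lower, and NEFLA (199366), a light chain, had 35, 119 and 96 and then 1, 1 and 1, at least 27.8-fold lower. In the young group, replicate 1 was the lowest for each of these genes.

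Growth cone genes were lower too. GAP43 (250761), a protein of growing nerve endings, fell from 90, 165 and 107 to 9, 15 and 27 (-2.84 ± 0.40), and STMN2B (554129), which regulates microtubules in axons, from 72, 267 and 203 to 4, 3 and 4 (-5.09 ± 0.61). CHAT (115149), the enzyme that makes acetylcholine in motor neurons, had 18, 50 and 21 in young and 0 in each adult library, at least 9.89-fold lower. STMN1 (383358) and MARCKSB (148972), which are expressed in many growing cells, fell from 177, 123 and 162 to 18, 26 and 33 (-2.56 ± 0.27) and from 270, 337 and 327 to 59, 54 and 75 (-2.30 ± 0.19). The single higher entry, 1 of 2 named MAPT (659255), rose from 78, 99 and 73 to 234, 154 and 148 (1.07 ± 0.24), a call lost with equal totals and without young replicate 3 or adult replicate 1.

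The neuron marker sum moved with this family: young replicate 2 was highest with 3060, young replicate 1 lowest with 939, and the adult libraries were at 40 to 85. Without young replicate 2 the number of lower members was 26. GFAP (140286), a filament of astrocytes and of some nerve glia, had 180, 898 and 570 in young and 5, 0 and 1 in adult muscle (-7.63 ± 0.75), in the same order of young libraries, and the myelin protein PLP1B (512118) had 38, 88 and 41 and then 5, 2 and 5 (-3.47 ± 0.55). The part of the amount of nerve or other neural tissue in the samples was not tested.

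Genes of the neuromuscular junction had 1 of 29 entries higher (3.45%, beside 10.7% of all genes) and 3 lower (10.3%, beside 11.4%), with a median of 0.35. AGRN, the signal of the nerve that clusters receptors, fell in 1 of 2 entries (521585), from 238, 260 and 225 to 89, 96 and 119 (-1.25 ± 0.30). COLQ, the anchor of acetylcholinesterase, fell in 1 of 2 entries (138301), from 16, 39 and 23 to 3, 7 and 3 (-2.33 ± 0.72). The COLQ call was lost without young replicate 2, young replicate 3, adult replicate 1 or adult replicate 3. DOK7, which acts within the fibre at the receptor cluster, rose in 1 of 2 entries (381998), from 74, 104 and 96 to 167, 214 and 201 (1.09 ± 0.22). It was under the limit with equal totals or without young replicate 1. The other entries of AGRN, COLQ and DOK7 were not called. The sodium channel SCN4AA had 1 entry (590672) with 30, 118 and 85 in young and 1, 6 and 3 in adult muscle (-4.16 ± 0.64), while its abundant entry (865759) had 2570, 1832 and 1986 and then 5293, 2026 and 2425 (0.49 ± 0.31). The lower entry has its young libraries in the same order as the neuron markers.

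Chromatin regulators and linker proteins had 21 of 85 entries lower (24.7%) and 7 higher, with a median of -0.28. The lower ones included enzymes and structural proteins of dividing nuclei. WHSC1 (713692), a histone H3 methyltransferase, had 238, 257 and 276 normalised reads in young and 27, 21 and 20 in adult muscle (-3.46 ± 0.36, adjusted p 9.48e-05). LMNB1 (381682), a lamin of the nuclear envelope, fell from 307, 324 and 312 to 34, 19 and 55 (-3.21 ± 0.38), LMNB2 (135481) from 114, 118 and 137 to 37, 34 and 40 (-1.70 ± 0.18) and CBX5 (434270), the heterochromatin protein HP1 alpha, from 237, 313 and 368 to 63, 58 and 80 (-2.16 ± 0.20). The remodeller CHD4 (728214) fell from 1019, 1214 and 1144 to 335, 439 and 346 (-1.60 ± 0.18).

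The higher chromatin genes were in part relatives of lower ones. EZH1 (796614), the enzyme for the same histone mark in cells that no longer divide, had 86, 64 and 90 and then 359, 514 and 326 reads (2.29 ± 0.21, adjusted p 5.03e-05), opposite to EZH2. CBX7A (237458), a Polycomb protein that binds this mark, had 4, 9 and 8 and then 87, 344 and 68 (4.06 ± 0.56). Of the class IIa deacetylases, which restrain MEF2 factors in muscle, 3 of 8 entries rose: HDAC9B (619271) from 234, 243 and 259 to 943, 962 and 881 (1.92 ± 0.15), 1 of 3 entries of HDAC5 (259995) from 72, 65 and 57 to 213, 201 and 222 (1.70 ± 0.18) and HDAC7 (105519) from 127, 108 and 121 to 379, 321 and 365 (1.57 ± 0.21). The other entries of HDAC5 and the 3 entries of HDAC4 were not called. KDM6BB (426171), a demethylase that removes it, rose from 676, 812 and 733 to 1995, 1393 and 1590 (1.15 ± 0.20). All 6 of the higher genes named here have separate groups.

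Genes known in mammals to respond to glucocorticoids or FOXO factors had the highest share of higher members, 45 of 63 entries (71.4%) with 2 lower and a median of 1.70. This list and those of immediate-early and clock genes were drawn up with knowledge of which genes had moved in these libraries. FOXO1A (279571), a transcription factor of fasting, had 45, 48 and 30 normalised reads in young and 399, 410 and 273 in adult muscle (3.11 ± 0.26, adjusted p 3.25e-05). FKBP5 (826270), a co-chaperone of the glucocorticoid receptor and its target, rose from 1517, 1300 and 2456 to 4066, 6409 and 4965 (1.58 ± 0.38). The receptor itself, NR3C1, was higher in 3 entries, the first of which (625240) had 324, 284 and 284 and then 669, 782 and 775 (1.32 ± 0.16). Every adult value of these genes is above every young one.

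Other responsive genes, like NR3C1, were named after their values were seen. CEBPD (128543), a transcription factor of the acute response, had 27, 36 and 10 in young and 612, 914 and 730 in adult muscle (5.04 ± 0.49), and ARRDC2 (939321) had 46, 122 and 36 and then 1875, 2067 and 2216 (5.10 ± 0.46). GADD45G (274282), a growth arrest gene, had 12, 29 and 4 and then 313, 219 and 235 (4.34 ± 0.51), and the cell cycle inhibitor CDKN1A (316473) 185, 497 and 475 and then 1926, 1493 and 2063 (2.36 ± 0.38). The lower members were both entries of FOXO3A (270277 and 587813), with 69, 58 and 56 and then 35, 10 and 8 in the first (-2.02 ± 0.43). PDK4 (454468), the fasting form of pyruvate dehydrogenase kinase, had 319, 421 and 385 and then 529, 519 and 496, under the limit (0.46 ± 0.28, adjusted p 0.229).

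Immediate-early genes were higher in 20 of 35 entries (57.1%) and lower in 0 by limma, 27 and 0 at an unadjusted p under 0.05, with a median of 1.6. IER2 (962068), a short-lived nuclear protein, had 21, 13 and 9 normalised reads in young and 204, 289 and 287 in adult muscle (4.15 ± 0.44, adjusted p 9.82e-05). The zinc finger factors KLF11B (596594) and KLF6 (434475) rose from 67, 150 and 76 to 774, 695 and 747 (3.00 ± 0.27) and from 178, 186 and 196 to 811, 627 and 605 (1.85 ± 0.19). NR4A3 (265564), named after its values were seen, did not follow and had 555, 1446 and 1429 and then 1033, 318 and 930 (-0.64 ± 0.44).

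Genes of the core clock were higher in 13 of 34 entries (38.2%) and lower in 1, with a median of 0.88. Clock genes swing through the day, and all fish were killed at the same hour. NR1D2 (544560), a repressor of the BMAL1 gene, had 11, 14 and 9 normalised reads in young and 379, 125 and 155 in adult muscle (4.01 ± 0.36, adjusted p 4.88e-05), and BHLHE40 (977955), which competes with BMAL1 at E-boxes, 350, 296 and 275 and then 1571, 1696 and 2342 (2.59 ± 0.21). NFIL3 (619878) rose from 43, 34 and 32 to 352, 195 and 164 (2.6 ± 0.30), and its opponent DBPB (271133) from 175, 223 and 217 to 502, 670 and 443 (1.37 ± 0.23). PER2 (541760) was the lower entry, with 645, 538 and 692 and then 153, 211 and 162 (-1.83 ± 0.29), while PER1B (182406), named after its values were seen, rose from 85, 43 and 132 to 208, 298 and 338 (1.80 ± 0.42). In each of these the groups are separate.

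Ubiquitin ligases, proteasome and autophagy genes were higher in 22 of 83 entries (26.5%) and lower in 3, with a median of 0.10. FBXO32 (291383), the ligase atrogin-1 that marks muscle proteins for breakdown, had 4, 2 and 1 normalised reads in young and 275, 2357 and 536 in adult muscle (7.82 ± 0.89, adjusted p 0.000136), a spread among adult fish in which replicate 2 is the highest. ASB15 (829769) and ASB5 (424839), muscle adaptors of cullin ligases, rose from 10, 8 and 5 to 144, 82 and 86 (3.59 ± 0.31) and from 61, 45 and 96 to 294, 270 and 258 (2.08 ± 0.25), and KBTBD12 (374730) from 176, 157 and 159 to 919, 735 and 808 (2.31 ± 0.20). Groups were separate in each.

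The autophagy factor ATG14 (47688) rose from 30, 28 and 39 to 87, 120 and 114 (1.70 ± 0.24), and the mitophagy receptor BNIP3 (572925) from 25, 23 and 21 to 80, 138 and 80 (2.02 ± 0.36). The lysosomal protease CTSD rose in the entry 385279, 1 of 2 tested, from 7, 8 and 9 to 44, 47 and 28 (2.15 ± 0.28). CTSLA (917756), another such protease, rose from 130, 157 and 169 to 457, 643 and 446 (1.74 ± 0.25). PSMD11 (707863), a subunit of the proteasome lid, fell from 87, 130 and 106 to 35, 39 and 45 (-1.41 ± 0.21). The other lower entries were ATG5 (412836, -1.01 ± 0.23) and MAP1LC3C (337115, -2.88 ± 0.87), whose calls were lost in 4 and 5 of the alternatives, for ATG5 without young replicate 3, adult replicate 2 or adult replicate 3 or with a constant of 5, and for MAP1LC3C without any 1 of the 6 libraries other than adult replicate 2. BNIP3 and CTSLA were named after their values were seen.

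Immune effectors were higher in 20 of 52 entries (38.5%) and lower in 0 by limma, 28 and 0 at an unadjusted p under 0.05, with a median of 1.15. The count was 13 without young replicate 2, 11 without adult replicate 2 and 13 with equal totals. C7 (616353), a component of the complement pore, had 32, 18 and 19 normalised reads in young and 82, 162 and 83 in adult muscle (2.17 ± 0.31, adjusted p 0.000512), and C1QC (207971), which starts the classical complement pathway, 40, 28 and 29 and then 85, 114 and 93 (1.57 ± 0.31). The interferon response factor IRF1B (355243) rose from 18, 11 and 12 to 67, 242 and 43 (2.65 ± 0.50) and the class I subunit B2M (245838) from 60, 76 and 68 to 196, 434 and 161 (1.81 ± 0.30). In C7, C1QC, IRF1B and B2M adult replicate 2 was the highest library. The most abundant member, complement C3 (458261), had 372, 75 and 75 and then 1089, 986 and 110 and was not called (1.93 ± 1.1, adjusted p 0.2).

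Leukocyte markers moved with these genes. MPX (819976), the peroxidase of neutrophils, had 66, 69 and 55 and then 398, 254 and 255 (2.21 ± 0.32), the common leukocyte antigen PTPRC (484953) 82, 54 and 50 and then 161, 214 and 120 (1.39 ± 0.25) and AIF1 (112870), found in macrophages, 19, 19 and 20 and then 66, 86 and 59 (1.79 ± 0.23). The young and adult values of these markers are separate, and the part of the number of leukocytes in the rise of immune genes was not tested.

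TGF-beta, BMP and activin signalling, which restrains muscle growth through myostatin and directs matrix, had 7 of 61 entries higher (11.5%) and 0 lower by limma, 15 and 4 at an unadjusted p under 0.05, with a median of 0.17, beside 10.7% higher over all genes. The count was 3 without adult replicate 2, and 4 without adult replicate 1, young replicate 2 or young replicate 3. The co-receptor TGFBR3 rose in 3 of 4 entries, 1 of which (622481) lost its call without any 1 of the 6 libraries other than young replicate 1. The first (256782) went from 148, 100 and 113 to 266, 330 and 307 (1.33 ± 0.18, adjusted p 0.000337). The ligand TGFB1B (166012) had 106, 74 and 55 and then 184, 164 and 159 (1.15 ± 0.23, a call lost without young replicate 3).

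**Figure D5:**
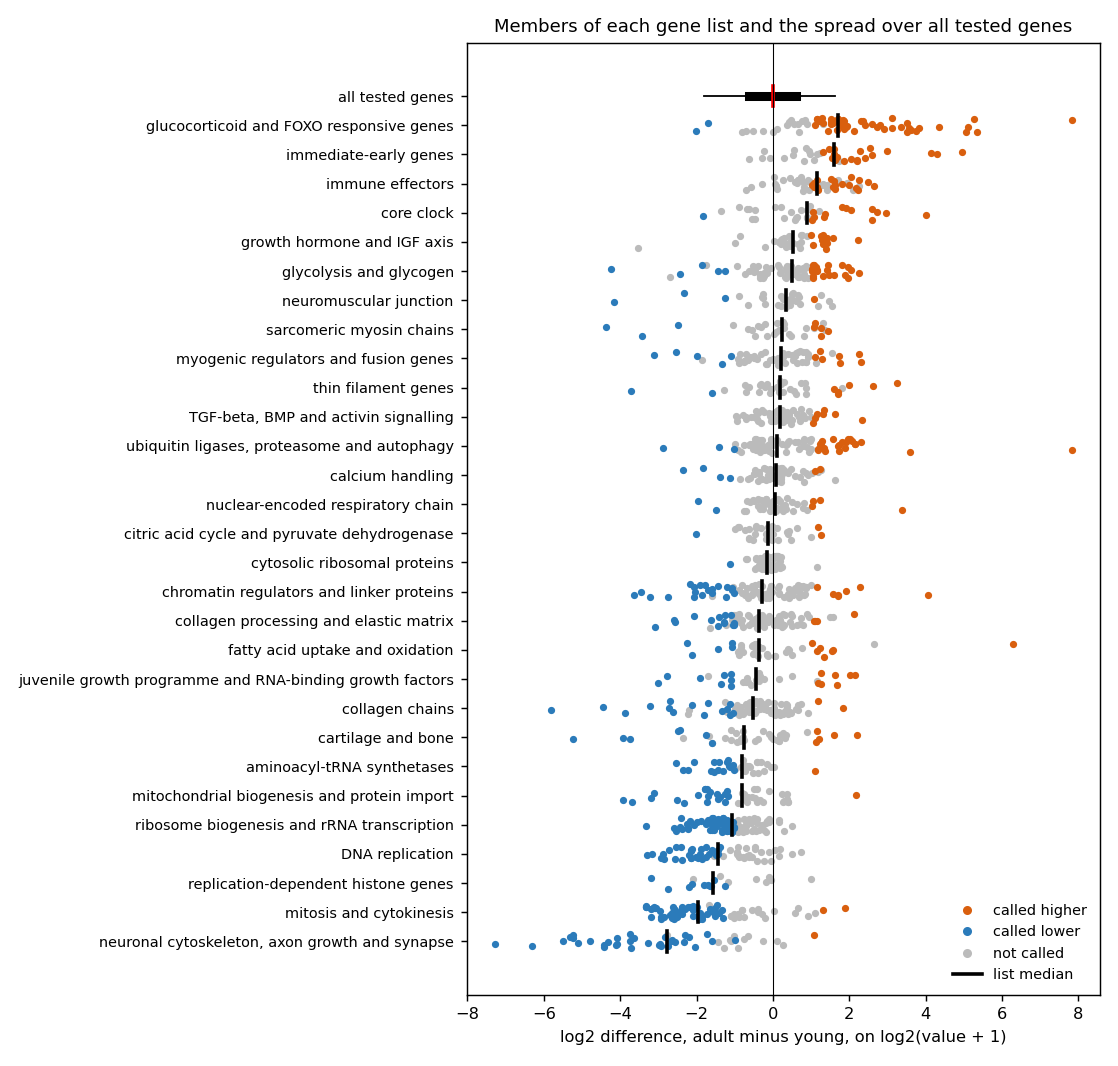
Log2 difference (adult minus young, on normalised read count plus 1) of each tested member of the gene lists, coloured by call, with black bars for list medians; the top row gives all tested genes as the range from the 5th to the 95th percentile (thin line), the range from the 25th to the 75th percentile (thick line) and the median (red). List medians run from -2.77 for axon and synapse genes to 1.70 for glucocorticoid and FOXO responsive genes.

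Among called entries with the most reads, chosen by read count after the values were seen, several belong to no list. AMPD1 (770664), the muscle enzyme that deaminates AMP during work, rose from 16868, 15740 and 17960 to 56647, 31680 and 54797 (1.46 ± 0.27), and TCAP (518411), which caps titin at the Z-disc, from 1819, 2598 and 2422 to 13390, 13164 and 8452 (2.34 ± 0.46). Of 3 entries of SVIL, which links actin to the membrane, 1 (946544) rose from 3888, 4584 and 4225 to 15284, 14514 and 13743 (1.78 ± 0.19). The others (276351 and 848743) were not called. On the lower side, MYOZ1B (659928), a Z-disc protein that binds calcineurin, had 3980, 4025 and 4810 and then 263, 160 and 673 (-3.80 ± 0.63). The chaperone HSP90AA1.1 (118473), needed for myosin folding in zebrafish, had 13308, 17280 and 14887 and then 4328, 2064 and 4954 (-2.09 ± 0.29). Of 2 entries of the elongation factor EEF2, 1 (813816) had 19208, 20812 and 20708 and then 7041, 8382 and 13929 (-1.11 ± 0.23, under the limit without adult replicate 1). The other (565174) was not called. Groups do not overlap in any of the 6 called entries.

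In old fish (35 weeks) a few members are given here as values only, because the 3 old libraries were not compared. MYH6 had 13180, 10878 and 21712 normalised reads, near the adult values, and MYH1 had 45, 40 and 120. MYH2 had 39589, 48785 and 39833, between the young and adult means. FBXO32 had 541, 46 and 69, IGF2BP3 35, 68 and 43 and NEFMA 2, 1 and 4.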

How the data were processed

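Stranded libraries of total RNA were sequenced in paired-end mode, and per the labels and methods reads were trimmed with Trimmomatic 0.33, aligned with STAR 2.4.2a and counted with featureCounts 1.4.5-p1, without reads that fell on several genes or places. The deposited values are a signal: reads per gene divided by 1 DESeq size factor per library by the authors and rounded to whole numbers. Size factors estimated from the spacing of these numbers gave 11.7 to 12.9 M reads per young and 11.8 to 14.2 M per adult library. Since the values are no raw counts, log2(value + 1) was fitted with limma 3.58.1 (R 4.3.3), with 1 mean per age over all 9 libraries, eBayes and a trend on the mean. The contrast of adult minus young was adjusted by Benjamini-Hochberg over 17454 entries with a mean of at least 5, and an entry was called where that p did not exceed 0.05 and the ages differed by 1 or more on the log2 scale. Log2 differences understate the change of low genes, and groups at or under 3 reads in each library are given by bounds from 3. With 3 fish against 3, a permutation test of 1 gene cannot go below a p of 0.1, so none was run.

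The 29 gene lists and 15 marker lists were matched by name, with fish duplicates. Of each direction the 20 called named genes with the smallest p and separate groups are named, and of each list up to 6 called members per direction, the most abundant member (3 for marker lists) and families of up to 12 in full. Not all of these are printed, and genes outside the rule are marked as named after their values were seen. The members, lists and rules were chosen with earlier results of these data known. Of the names tested, 2731 have several entries, between which reads of similar copies can be split. Alternatives of scaling, filter, added constant, test, block and omitted library were run. Coordinates and sequences are not used here. Results for some genes are not reported here. The fit was tested on simulated data, and Python 3.11.15 with numpy 2.4.6 and matplotlib 3.10.9 was used for summaries and figures.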

Additional observations from a re-analysis of the deposited data

How the results depend on the processing

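Of 270 called genes that the naming rule picked, 213 kept their call with equal totals, a constant of 5, the young and adult libraries alone, the replicate block and each omitted library, and 0 reversed. The 3855 calls (1868 higher, 1987 lower) were 1818 (1038 and 780) with a mean of at least 50, 543 (254 and 289) when a change above 2-fold was itself tested (treat) and 5837 (2831 and 3006) without a fold limit. With equal totals the higher share of calls went from 48.5% to 38.1% (39.2% without the 20 most abundant entries), without a filter to 42.9% and with a mean of at least 50 to 57.1%. Leaving out 1 library gave 1481 to 1950 higher and 1525 to 2090 lower entries, 3025 to 4033 in all. With equal totals the glycolysis list had 12 and the immune list 13 higher members. With 1 entry per name, lower members were 9 among collagen chains, 7 in collagen processing and 2 among histones, and higher ones 7 in the growth hormone and IGF axis, 8 in the clock, 13 among immune effectors, 1 among myosin chains and 3 in TGF-beta signalling. Across omitted libraries collagen chains ranged from 8 to 16, glycolysis from 13 to 21 and immune effectors from 11 to 23. The labels do not say whether the replicate numbers pair the libraries. Same-numbered young and adult libraries deviated together with correlations of 0.00, -0.07 and 0.11. With 3 libraries per age, these cannot show whether libraries of 1 number were handled together. With a replicate block 3726 entries were called (1800 and 1926), with no list count changed by over 1.5 times. Depth limits low genes: 9532 tested entries have a mean under 50.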

Other observations

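Non-coding RNAs belong to none of the gene lists. Of 121 tested entries annotated from the Rfam collection of RNA families, 25 were higher and 8 lower in adult muscle (27.3% called, beside 22.1% of all tested entries), with a median difference of 0.72 on the log2 scale. Over all tested entries 10.7% were higher and 11.4% lower. The higher ones were mostly small RNAs of the nucleolus and Cajal bodies, which guide the modification of ribosomal and spliceosomal RNA. Several of the lower entries and many of those not called are of the same kind. SCARNA6 had 80, 105 and 96 normalised reads in young and 372, 527 and 345 in adult muscle (2.12 ± 0.26, limma adjusted p 0.000207), and 1 entry of SNORD97 had 170, 142 and 243 and then 615, 758 and 590 (1.84 ± 0.27, adjusted p 0.000586). The opposite held for SNORD49, with 32, 26 and 39 and then 4, 4 and 6 (-2.56 ± 0.40). SNORA31, SNORD31 and 1 entry of SNORD15 were also lower, while another entry of SNORD15 was higher. Among microRNA precursors, which are read only as far as total RNA libraries hold them, MIR27 rose from 15, 13 and 20 to 61, 79 and 52 (1.93 ± 0.27), and 1 entry each of the muscle microRNAs MIR133 and MIR1 fell, from 44, 25 and 39 to 2, 14 and 10 (-2.19 ± 0.58) and from 11, 18 and 19 to 1, 6 and 7 (-1.78 ± 0.57). The genes were chosen after their values were seen.

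Entries with a name that starts with NFURLNR, which the sources used here do not explain, were 1186 among those tested, of which 156 were higher and 81 lower (20.0% called, beside 22.1% of all tested entries). The entry with the smallest p, NFURLNR03440010010 (990605), had 4, 4 and 1 reads in young and 404, 338 and 486 in adult muscle (6.78 ± 0.36, limma adjusted p 1.59e-06).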
